A study of Mus musculus with 4 samples.

Results

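Smooth muscle cells (SMC) of the embryonic mouse gut were compared between the small intestine (SI) and the large intestine (LI) at embryonic stage E12.5. They were taken from single-cell RNA sequencing of intestinal stroma, by a rule on measured transcripts. A cell barcode was kept when it had 1000 or more genes and under 10% of its unique molecular identifiers (UMIs, which count captured transcripts) in mitochondrial genes. A kept cell was called an SMC when *Acta2* reached 10 UMIs per 10000 of the cell, when at least 2 of *Myh11*, *Cnn1*, *Actg2*, *Mylk* and *Lmod1* were detected, and when *Upk3b* (mesothelium) and *Sox10* (enteric neural crest) had 0 UMIs. Of 24485 barcodes, 23188 were kept and 5736 were SMC. SI gave 4738 SMC and LI gave 998. A further 15174 kept cells had 0 UMIs of *Upk3b* and *Sox10* but failed the muscle criteria, and these are called remaining stromal cells.

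The study followed intestinal stromal cells and their precursors along the gut, and these 4 libraries held its E12.5 tissue, 2 from SI and 2 from LI including the cecum. The labels give 2 independent experiments, each with several untreated EYFP (C57BL/6) embryos, in which yellow fluorescent protein was expressed ubiquitously. They do not say which SI and LI libraries came from the same experiment, so that libraries of the 2 regions may share embryos. Cells had been sorted as live, YFP+ and Itgb1+ (β1 integrin, the pan-stromal gate) and as CD45-, Ter119-, CD31- and EpCAM-. SI and LI cells thus shared strain, stage and gate and differed in the segment of gut. Libraries came from a 3′ or a 5′ kit, and since the kit of each library is not given, its part in the regional differences was not tested. Since embryos were pooled, p-values measure the spread between libraries and not between embryos.

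Visceral smooth muscle arises from the mesenchyme around the gut tube, where hedgehog ligands from the epithelium and BMP signals help set where the first, circular layer forms. Differentiating cells switch on smooth muscle actins, myosin heavy chain and calponin under serum response factor and its coactivator myocardin. Differentiation proceeds along the length of the gut over several days, so that segments of a single embryo need not be equally advanced. *Hox* genes give mesenchyme along this axis its regional identity.

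The libraries differed in depth. Total counts were 52160160 and 62886525 UMIs in SI replicates 1 and 2 and 31630548 and 49793211 UMIs in LI replicates 1 and 2. LI replicate 1 stood apart from the others. Its 143 SMC had a median of 4630 UMIs and 2099 genes, while the medians in the other 3 libraries lay between 8373.5 and 9651 UMIs and between 2985 and 3406 genes. Its SMC summed to 737907 UMIs, while the sum was 8943136 UMIs for LI replicate 2 and 15672833 and 28222396 UMIs for the SI libraries. A count of 0 in a sum therefore allowed up to 4.07 CPM (UMIs scaled to a common sum) in LI replicate 1 and up to 0.335 CPM in each of the others. SMC in different libraries shared 0 to 2 barcodes per pair of libraries.

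Contractile genes that the rule did not use were higher in SMC, while markers of other cells did not all separate SMC from remaining stromal cells. Summed over 50 contractile and cytoskeletal genes outside the rule, SMC had 10606, 14440, 15774 and 13502 CPM in SI replicates 1 and 2 and LI replicates 1 and 2, while the remaining stromal cells had 6521 to 7583 CPM. The groups did not overlap, although cells picked on *Acta2* carry related genes with it. *Myocd*, which encodes myocardin, was at 133, 169, 111 and 214 CPM in SMC and at 26.9 to 42.2 CPM in remaining cells. Markers of other cells were present to different degrees, and LI replicate 1 carried more of some. The mesothelial list summed to 134 CPM there and to 11.5 to 34.8 CPM in the other libraries (41.9 to 144 CPM in remaining cells), mostly from the keratin gene *Krt18*, with *Upk3b* and *Msln* at 0 UMIs. The neural list summed to 110 CPM in LI replicate 1 and to 33.9 to 61.3 CPM elsewhere, mostly from *Stmn2*, and to 244 to 690.1 CPM in remaining cells. Fibroblast (FB) markers summed to 676 to 900 CPM in SMC, with *Dpt* at 0 UMIs, and to 623 to 984 CPM in remaining cells. Markers of interstitial cells of Cajal gave 182 to 311 CPM in SMC and 208 to 299 CPM in remaining cells, so that both lists overlapped between the cell groups. Pericyte markers gave 44.5 to 110 CPM, with *Vtn* and *Higd1b* at 0 UMIs, and 37.3 to 135 CPM in remaining cells, and in LI replicate 1 they were at 110 CPM in SMC and at 37.3 CPM in remaining cells. Endothelial, immune, epithelial and erythroid lists each stayed at or under 18.97 CPM in SMC and at or under 28.4 CPM in remaining cells. A setting chosen after seeing the data kept SMC with 0 UMIs of the FB markers *Pdgfra* and *Adamdec1*, with no limit on the other FB markers. There 70 genes differed between the regions, 65 of them among the 102 called in all SMC. Of the 102, 97 had the same direction, and a gene not tested in this setting counted as not having it. The part of the other markers in the comparisons that follow was not tested.

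SMC made up a larger share of the kept cells in both SI libraries than in both LI libraries. The share was 31.7% in SI replicate 1 (1700 of 5369 cells, 95% Wilson interval 30.4 to 32.9) and 46.1% in SI replicate 2 (3038 of 6595, 44.9 to 47.3). It was 2.22% in LI replicate 1 (143 of 6438, 1.89 to 2.61) and 17.9% in LI replicate 2 (855 of 4786, 16.8 to 18.98). These intervals cover counting error only, and the libraries of a region differed by far more than that. The mean was 38.9% ± 10.2 (SD, n = 2) in SI and 10.0% ± 11.1 (SD, n = 2) in LI, a difference of 28.8 percentage points. With 2 libraries against 2, the exact permutation test cannot go below its 2-sided p of 0.333, which is the value obtained. The difference was 21.0 points without LI replicate 1 and 36.6 points without LI replicate 2.

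The order of the libraries was the same at equal depth. Among cells with 3000 or more UMIs, thinned to 3000 UMIs each before the rule was applied, the shares were 22.6% and 39.1% in SI and 1.77% and 13.7% in LI. The same cells unthinned gave 32.0%, 46.2%, 2.43% and 18.3%. Cells that should lack these genes gave the background. Among cells with 2 or more *Upk3b* UMIs, 0% to 6.35% per library met both muscle criteria at median depths of 4538 to 9514 UMIs. Among cells with 2 or more *Sox10* UMIs, 0% to 4.04% did at median depths of 13040 to 22315.5 UMIs. Both shares were 0 in LI replicate 1, of 468 *Upk3b* cells and of 59 *Sox10* cells, which allows up to 0.641% and up to 5.08%. The 2.22% of SMC in that library thus lay above the limit set by the *Upk3b* cells and under the limit that so few *Sox10* cells could set.

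**Figure D1:**
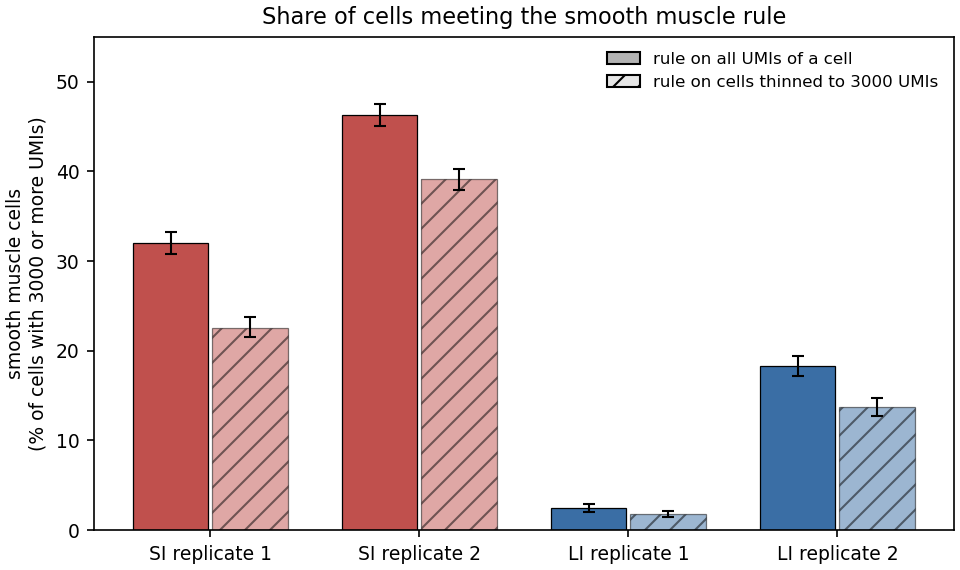
Percentage of cells with 3000 or more UMIs that met the smooth muscle rule in each library, with 95% Wilson intervals for counting error. Solid bars use all UMIs and hatched bars use cells thinned to 3000 UMIs; both SI libraries (32.0% and 46.2% unthinned) stand above both LI libraries (2.43% and 18.3%).

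The values that chose the cells also differed between libraries, and they are given as a description. The median *Acta2* level of SMC was 27.4 and 42.8 UMIs per 10000 in SI replicates 1 and 2 and 21.5 and 29.6 in LI replicates 1 and 2. Cells at 80 or more made up 1.53% and 11.4% of SMC in the SI libraries and 8.39% and 1.99% in the LI libraries. Cells at 10 to 20, the lowest admitted range, made up 45.5% in LI replicate 1 and 15.6% in SI replicate 2. SI replicate 2 thus had the highest median and the largest share at 80 or more, and LI replicate 1 the largest share near the threshold, although the single highest cell was in LI replicate 1 (209 against 171 in SI replicate 2). Just under it, 48, 32, 12 and 28 cells in SI replicates 1 and 2 and LI replicates 1 and 2 had 9 to 10 *Acta2* UMIs per 10000 and met the other criteria, and just over it 51, 39, 15 and 25 cells had 10 to 11. The rule's second criterion removed 161, 142, 139 and 135 cells with *Acta2* at the threshold and 1 second marker, and admitted 442, 418, 81 and 204 cells with exactly 2.

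Levels of the rule's own genes within SMC overlapped between the regions. *Acta2*, smooth muscle α-actin, was at 2939 and 4405 CPM in SI and at 3380 and 3219 CPM in LI. *Actg2*, the enteric γ-actin, was at 474 and 809 CPM in SI and at 789 and 502 CPM in LI. *Myh11*, smooth muscle myosin heavy chain, was at 143 and 483 CPM in SI and at 107 and 202 CPM in LI, with SI replicate 2 above the other 3 libraries. *Cnn1*, calponin, was at 163 and 310 CPM in SI and at 228 and 202 CPM in LI, and *Lmod1*, leiomodin, was at 39.3 and 74.1 CPM in SI and at 86.7 and 67.4 CPM in LI. *Mylk*, the myosin light chain kinase, was at 472 and 729 CPM in SI and at 228 and 480.3 CPM in LI. For these genes no region lay wholly above the other.

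**Figure D2:**
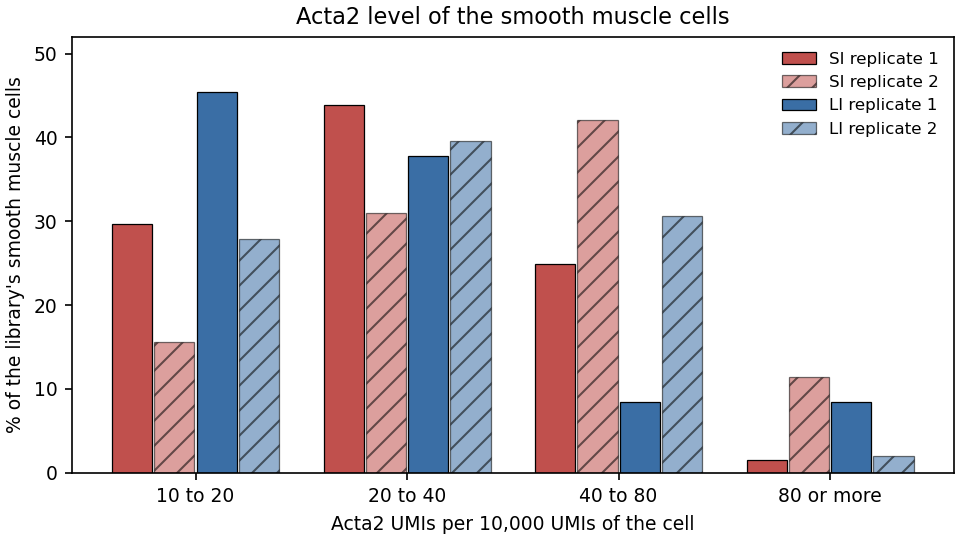
Percentage of each library's SMC (vertical axis) at 10 to 20, 20 to 40, 40 to 80 and 80 or more *Acta2* UMIs per 10000 UMIs of the cell (horizontal axis). The lowest range holds 45.5% of SMC in LI replicate 1 and 15.6% in SI replicate 2.

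To find genes that differed between SMC of the 2 segments, UMIs were summed over the SMC of each library and tested across 12592 genes. In edgeR's quasi-likelihood test, 102 genes (0.810% of those tested) had an adjusted p under 0.05, with 28 (0.222%) towards SI and 74 (0.588%) towards LI. Without adjustment 964 genes had p under 0.05. Of the 102, 85 had an absolute log2 fold change over 1.5, and 23 were *Hox* genes. In all 102 both libraries of 1 region lay above both of the other, which was so for 41.2% of all genes tested. Without the shallow LI replicate 1, 235 of 13228 genes (1.78%) were called, among them all 102. Of the 102, 57, 70 and 78 were still called without LI replicate 2, SI replicate 1 and SI replicate 2, and without LI replicate 2 the count over all genes was 346. All 102 also had the same direction in the remaining stromal cells, and 76 of them were called there too. A fit of SMC without 1 library sets 1 library against 2, so its spread comes from the other region alone. Without LI replicate 2, LI is LI replicate 1 alone, with 143 SMC. Calls over all genes rose without SI replicate 2, LI replicate 1 or LI replicate 2, so a rise in a list's calls is not by itself a trait of that list. Fold changes below are SI over LI on the log2 scale, and a negative value means higher in LI.

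Secreted regulators of BMP and WNT signaling and an enzyme of retinoic acid synthesis were among the genes with higher transcription in SI muscle. *Grem1* (ENSMUSG00000074934, chromosome 2, 113746164 to 113758646 on the minus strand of mm10), which encodes a BMP antagonist, was at 62.1 and 50.9 CPM in SI and at 10.8 and 8.95 CPM in LI. The libraries of a region lay close together, and the log2 fold change was 2.72 ± 0.25 (SE) with an edgeR adjusted p of 0.00187. *Sfrp1* (ENSMUSG00000031548, chromosome 8, 23411502 to 23449632, plus strand), a secreted WNT antagonist, was at 619 and 459 CPM in SI and at 55.6 and 116 CPM in LI. Both SI libraries were above both LI libraries, with a log2 fold change of 2.66 ± 0.31 (edgeR adjusted p 0.00555). *Rspo1* (chromosome 4, 124986430 to 125009099), an R-spondin that amplifies WNT signals, was at 42.7 and 45.9 CPM in SI and at 6.78 and 17.9 CPM in LI (1.63 ± 0.28, edgeR adjusted p 0.0408). *Aldh1a2* (chromosome 9, 71215789 to 71296243), the main retinoic acid synthesising enzyme of embryonic mesenchyme, was at 399 and 324 CPM in SI and at 39.3 and 105 CPM in LI. Its log2 fold change was 2.28 ± 0.34 (edgeR adjusted p 0.0223). *Pkdcc*, a secreted tyrosine kinase of the extracellular matrix, was at 140.4 and 69.4 CPM in SI and at 5.42 and 20.1 CPM in LI (2.74 ± 0.43), and *Angptl1*, an angiopoietin-related secreted protein, was at 97.0 and 82.3 CPM in SI and at 8.13 and 31.3 CPM in LI (1.94 ± 0.34). For *Sfrp1*, *Rspo1*, *Aldh1a2*, *Pkdcc* and *Angptl1* LI replicate 1 was the lowest library, and without LI replicate 2 the log2 fold changes were 3.39, 2.82, 3.31, 4.38 and 3.57. LI replicate 1 had 41, 5, 29, 4 and 6 UMIs of them, so the values of *Rspo1*, *Pkdcc* and *Angptl1* rest on few counts. *Grem1* and *Sfrp1* passed in 18 of 18 alternatives, *Aldh1a2* and *Pkdcc* in 16, *Angptl1* in 13 and *Rspo1* in 12, with the edgeR or DESeq2 adjusted p of these 4 reaching 0.115, 0.131, 0.452 and 0.201.

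Cell surface, intracellular and growth genes made up the rest of the named genes towards SI. *Gfra1*, a co-receptor for GDNF, was at 97.4 and 99.8 CPM in SI and at 28.5 and 48.9 CPM in LI (1.33 ± 0.23). *Alcam*, a cell adhesion molecule, was at 23.0 and 44.5 CPM in SI and at 9.49 and 6.49 CPM in LI (2.40 ± 0.40). *Ifitm1*, an interferon-inducible membrane protein, was at 356 and 458 CPM against 141 and 202 CPM (1.33 ± 0.22). *Skap2*, an adaptor of SRC family kinases, was at 65.8 and 47.4 CPM against 18.97 and 24.5 CPM (1.40 ± 0.25), and *Rgs10*, a regulator of G protein signaling, was at 68.1 and 61.2 CPM against 31.2 and 32.5 CPM (1.12 ± 0.20). The imprinted growth genes *Igf2* (583 and 604 CPM against 268 and 343 CPM) and *Dlk1* (262 and 274 CPM against 122 and 147 CPM) had log2 fold changes of 1.05 ± 0.18 and 1.08 ± 0.18. The edgeR adjusted p of these 7 genes lay between 0.0383 and 0.0412, close to the threshold. Exons of *Gfra1* and *Igf2* overlap antisense genes. Several calls were lost when 1 library was left out, although the fold changes of *Rgs10*, *Igf2* and *Dlk1* moved little. *Rgs10* lost its call without SI replicate 1 (1.06), SI replicate 2 (1.20) or LI replicate 2 (1.17), *Igf2* without SI replicate 1 (1.10) or 2 (1.03), *Dlk1* without SI replicate 1 (1.13) or 2 (1.05), *Skap2* without SI replicate 1 (1.19) and *Alcam* without LI replicate 2 (1.96; it was 1.79 without SI replicate 2).

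Among the genes higher in LI muscle were receptors and ligands of axon and cell guidance. *Epha7* (ENSMUSG00000028289, chromosome 4, 28813131 to 28967499, plus strand), an Eph receptor, was at 26.0 and 22.0 CPM in SI and at 75.9 and 124 CPM in LI. Its log2 fold change was -2.02 ± 0.24 with an edgeR adjusted p of 0.0067, and it passed in 18 of 18 alternatives. *Sema3c*, a secreted semaphorin, was at 2.49 and 3.61 CPM in SI and at 24.4 and 22.1 CPM in LI (-2.76 ± 0.29, edgeR adjusted p 0.00381). *Sema6a*, a transmembrane semaphorin, was at 21.6 and 25.9 CPM in SI and at 66.4 CPM in both LI libraries (-1.37 ± 0.20). *Sema6a* was not called without SI replicate 1 (-1.24). *Olfm1*, a secreted olfactomedin best known from the nervous system, was at 29.0 and 22.1 CPM against 63.7 and 66.4 CPM (-1.25 ± 0.21), and lost its call without SI replicate 2 (-1.06) or LI replicate 2 (-1.21).

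Single genes of other kinds were also called towards LI. *Igfbp5* (chromosome 1, 72857932 to 72874884), an IGF binding protein, was at 42.0 and 55.5 CPM in SI and at 153 and 188 CPM in LI (-1.71 ± 0.21, edgeR adjusted p 0.00724, passing in 18 of 18 alternatives). *Ppp1r14a* (ENSMUSG00000037166), also known as CPI-17, inhibits myosin phosphatase and so raises the calcium sensitivity of smooth muscle. It was at 54.7 and 80.4 CPM in SI and at 215 and 165 CPM in LI (-1.36 ± 0.24, edgeR adjusted p 0.0412), and lost its call without SI replicate 1 (-1.11). *Pitx1* (ENSMUSG00000021506, chromosome 13, 55825051 to 55836192, minus strand), a homeodomain factor known from hindlimb identity, had 0 UMIs in both SI sums and 20 and 157 UMIs in the LI sums, or 27.1 and 17.6 CPM. It was at least 268-fold higher in LI, with a floor of 3 UMIs over the SI group (edgeR adjusted p 0.000709), and at least 95.5-fold without SI replicate 2, although its exons share bases with *Gm28760* on the same strand. In remaining stromal cells *Pitx1* was at 0.0334 and 0.252 CPM in SI and at 161 and 133 CPM in LI, above its level in LI muscle. Whether UMIs from such cells added to the muscle counts was not tested. *Satb1*, a chromatin organiser, was at 8.10 and 10.1 CPM against 43.4 and 42.5 CPM (-2.11 ± 0.22, edgeR adjusted p 0.00381). *Twist1*, a basic helix-loop-helix factor of mesenchyme, was at 26.8 and 28.3 CPM against 65.0 and 74.8 CPM (-1.26 ± 0.19) and was lost without SI replicate 1 (-1.20) or 2 (-1.29). *Zswim6* was at 25.7 and 24.5 CPM against 48.8 and 66.3 CPM (-1.15 ± 0.21) and was called without LI replicate 1 but not without any of the other 3 libraries (-1.15, -1.09 and -0.85).

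Genes at lower counts completed the lists towards LI. *Crabp2*, a cytosolic retinoic acid binding protein, was at 6.76 and 7.83 CPM in SI and at 14.9 and 32.2 CPM in LI (-1.77 ± 0.30), and lost its call without LI replicate 2 (-0.91) or SI replicate 1 (-1.60). *Gdf10*, a BMP family ligand, was at 1.02 and 1.10 CPM against 6.78 and 7.16 CPM (-2.61 ± 0.40). It was called without LI replicate 1 (-2.62) and not without any of the others (-2.55 to -2.66). *Adra2a*, an α2-adrenergic receptor, was at 0.191 and 0.319 CPM against 5.42 and 6.15 CPM (-4.32 ± 0.52, lost without LI replicate 2). *Rgs6*, a regulator of G protein signaling, had 0 UMIs in SI replicate 1 and was at 0.142 CPM in SI replicate 2 against 4.07 and 3.35 CPM in LI. Its fitted value of -5.05 ± 0.79 became -4.43, past the threshold no longer, without SI replicate 1. Without SI replicate 2 no SI UMI was left, and it was called and at least 17.8-fold higher in LI.

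**Figure D3:**
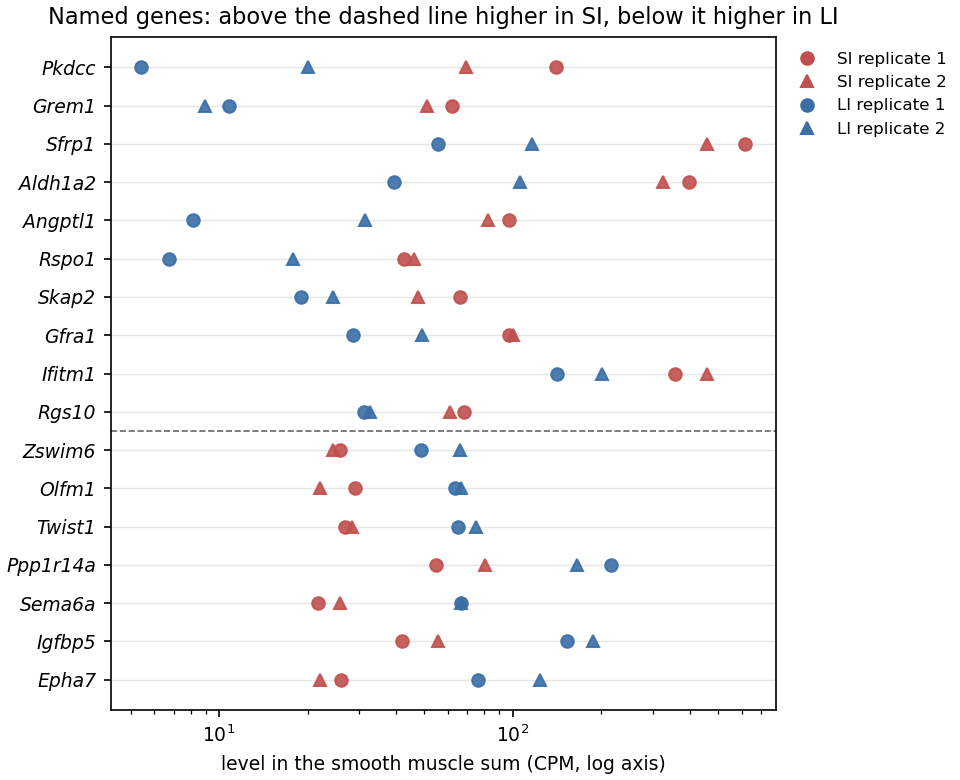
Level in CPM (log axis) of 17 called genes other than *Hox* with an average log2 CPM over 5, the 10 with the largest fold change towards SI and the 7 called towards LI, with 1 point per library. Genes above the dashed line were higher in SI, such as *Grem1* at 62.1 and 50.9 CPM against 10.8 and 8.95 CPM, and genes below it were higher in LI.

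Of 48 tested genes of the contractile and cytoskeletal list, *Ppp1r14a* alone was called, beside 0.810% of all genes. The list's median log2 fold change was -0.10 (range -1.71 to 0.71, 17 positive and 31 negative) beside 0.00 over all genes. The largest value was that of *Des*, which encodes the muscle intermediate filament desmin. It was at 14.4 and 33.2 CPM in SI and at 117 and 65.3 CPM in LI without overlap (-1.71 ± 0.41, edgeR adjusted p 0.159), and it was called without SI replicate 2 (-2.49) or LI replicate 2 (-2.16). *Tagln*, which encodes transgelin, was at 478 and 1078 CPM in SI and at 1472 and 918 CPM in LI (-0.50 ± 0.36, edgeR adjusted p 0.826), and it was called without SI replicate 2 (-1.21, edgeR adjusted p 0.0227). Values for *Myl9*, *Tpm1*, *Tpm2*, *Cald1* and *Smtn* lay between -0.38 and 0.30, each within 2 SE of 0. Exons of *Des* and *Tagln* share bases with an antisense gene (*Gm15179*, *Pcsk7*). Without SI replicate 1 the list gave 0 calls, and without SI replicate 2 or LI replicate 2 it gave 5 and 4.

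Of 36 muscle regulators tested, *Twist1* alone was called, beside 0.810% of all genes, and the median was -0.09. Without SI replicate 1, SI replicate 2, LI replicate 1 and LI replicate 2 the list gave 0, 3, 2 and 6 calls. *Myocd* had a log2 fold change of -0.05 ± 0.27, *Hand2* 0.55 ± 0.20 and *Foxf1*, a hedgehog-induced mesenchymal factor, 0.41 ± 0.31, with 601 and 583 CPM in SI and 289 and 654 CPM in LI. The value of *Myocd* was -0.38 without LI replicate 1 and 0.56 without LI replicate 2. *Foxf1* was lowest in LI replicate 1 and was called without LI replicate 2 (1.15). *Nkx2-3*, a gut mesenchyme homeobox factor, was at 240 and 195 CPM against 226 and 198 CPM. In the hedgehog pathway 0 of 15 genes were called by edgeR and 0 by DESeq2's Wald test, with 1 at an unadjusted p under 0.05 and a median of -0.01. At the share of 0.810% over all genes, lists of this size would seldom hold a call, so these counts say little about either list. *Ptch1*, receptor and target of the pathway, was at 254 and 257 CPM against 215 and 345 CPM, and *Gli1*, its transcriptional effector and target, at 30.8 and 28.1 CPM against 31.2 and 35.2 CPM. Without LI replicate 2 the hedgehog list gave 2 calls, both towards SI, and a median of 0.75, and without LI replicate 1 its median was -0.23. The median of the muscle regulators was 0.19 without LI replicate 2, where that of all genes was 0.07.

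Lists of signaling pathways gave 0 to 4 calls each, and over all genes 0.222% were called towards SI and 0.588% towards LI. Over all genes, too, calls rose when SI replicate 2, LI replicate 1 or LI replicate 2 was left out. The counts without 1 library are therefore not by themselves a trait of a list. In the WNT list 2 of 26 genes were called towards SI and 0 towards LI (median 0.21), and 4 to 6 were called when any 1 library was left out. *Rspo3* (1.18, edgeR adjusted p 0.0927) and *Fzd1* (1.11, 0.0949) missed the threshold in the same direction, and *Wnt5a* (-1.07, 0.169) in the other. The BMP and TGFB list had 1 gene called in each direction of 34 (median -0.01), and 4 were called without LI replicate 2. *Fst*, the activin antagonist follistatin, was at 57.2 and 170.0 CPM in SI and at 465 and 738 CPM in LI without overlap, but its edgeR adjusted p was 0.0664 (-2.30 ± 0.45). *Bmp4* was at 18.2 and 13.3 CPM against 23.0 and 15.2 CPM (-0.01 ± 0.29). The retinoic acid list had 1 call in each direction of 16 (median 0.23; 4 calls without LI replicate 1), and the FGF and PDGF list 0 of 18 by edgeR and by DESeq2's Wald test (median -0.19, 6 at an unadjusted p under 0.05, 1 called without LI replicate 1). Among signals to enteric nerves and guidance molecules, 1 was called towards SI and 3 towards LI of 38 (median -0.08), and the list gave 7 calls without LI replicate 1 and 9 without LI replicate 2. *Gdnf*, which draws enteric neural crest cells into the gut, was at 53.4 and 59.6 CPM against 63.7 and 75.8 CPM (-0.22 ± 0.19). Receptors, channels and calcium handling gave 0 and 2 calls of 33 (median -0.01; without LI replicate 2 this became 2 and 0 calls and a median of 0.46), extracellular matrix 1 and 0 of 53 (median -0.10, a count near the share over all genes), imprinted and IGF genes 2 and 1 of 21 (median 0.02), and regional homeobox and T-box factors other than *Hox* 0 and 2 of 21 (median -0.14, also with *Pitx1* at its bound). The matrix list gave 2, 4, 3 and 5 calls without SI replicate 1, SI replicate 2, LI replicate 1 and LI replicate 2. Imprinted and IGF genes gave 1 call without SI replicate 1 or SI replicate 2 and 6 without LI replicate 2, and the homeobox and T-box factors 4, 5 and 4 without SI replicate 2, LI replicate 1 and LI replicate 2. Without LI replicate 2 the sign of other medians turned too, to 0.28 for the BMP and TGFB list, 0.16 for FGF and PDGF, 0.01 for nerve and guidance signals, 0.05 for homeobox and T-box factors and -0.18 for imprinted and IGF genes.

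*Hox* genes gave more calls than any other list. Of 39 listed, 34 were tested, and 23 were called, 9 towards SI and 14 towards LI, while over all genes 0.222% were called towards SI and 0.588% towards LI. Of 9 tested genes of groups 10 to 13, 8 were called and all 8 were higher in LI. Group 9 gave 3 calls towards LI of 4 tested, and groups 1 to 8 gave 9 towards SI and 3 towards LI of 21. By cluster, *Hoxb* gave 5 towards SI and 0 towards LI of 8, *Hoxd* 0 and 7 of 8, *Hoxa* 2 and 4 of 11, and *Hoxc* 2 and 3 of 7. The number of calls ran from 19 without LI replicate 2 to 27 without LI replicate 1.

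*Hoxd11* and *Hoxd10* are neighbours in the posterior part of the *Hoxd* cluster and moved together, so the 250 bases upstream of their start sites are shown. The sequences are from RefSeq on GRCm38.p6, the build that mm10 names, and lie at chr2:74679308-74679557 and chr2:74691641-74691890 on the plus strand. They are printed 5′ to 3′, and capitals mark matches to TTTAT, a core preferred by posterior HOX proteins, searched on both strands (ATAAA on the strand shown).
Hoxd11: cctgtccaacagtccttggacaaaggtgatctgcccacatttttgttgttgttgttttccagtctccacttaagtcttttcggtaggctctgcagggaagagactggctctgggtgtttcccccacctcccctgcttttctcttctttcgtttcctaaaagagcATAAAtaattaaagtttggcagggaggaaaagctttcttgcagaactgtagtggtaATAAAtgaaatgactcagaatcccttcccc
Hoxd10: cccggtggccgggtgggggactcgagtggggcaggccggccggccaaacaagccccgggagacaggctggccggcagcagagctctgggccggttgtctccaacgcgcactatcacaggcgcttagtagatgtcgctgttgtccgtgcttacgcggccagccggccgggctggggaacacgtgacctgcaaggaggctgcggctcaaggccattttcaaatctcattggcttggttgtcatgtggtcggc
The *Hoxd11* window held 2 matches and the *Hoxd10* window 0, and a second *Hoxd11* start (chr2:74682073-74682322) also had 0. Of 32851 such windows, 12241 (37.3%) held at least 1 match, so a match here is a description of the letters only.

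*Hoxd11* (ENSMUSG00000042499, chromosome 2, 74679557 to 74687016) had 0 and 35 UMIs in SI replicates 1 and 2 and 183 and 1591 UMIs in LI replicates 1 and 2, or 248 and 178 CPM in LI. All SI counts came from SI replicate 2. Its log2 fold change was -7.99 ± 0.63 (edgeR adjusted p 0.000903), and without SI replicate 2 it was at least 957-fold higher in LI. *Hoxd10* (chromosome 2, 74691924 to 74695105) had 0 and 9 UMIs in SI and 54 and 637 UMIs in LI (-8.31 ± 0.46). *Hoxa10* had 0 and 28 UMIs in SI against 72 and 1308 UMIs in LI (-7.56 ± 0.60), and *Hoxa11* 0 and 5 UMIs against 30 and 414 UMIs (-8.40 ± 0.47). For these genes too the SI counts lay in SI replicate 2 alone, and without it the bounds were at least 373-fold for *Hoxd10*, 745-fold for *Hoxa10* and 240-fold for *Hoxa11*. *Hoxc11* and *Hoxd12* had 0 UMIs in both SI sums. *Hoxc11* was at least 127-fold higher in LI (45.3-fold without SI replicate 2) and *Hoxd12* at least 42.3-fold (15.1-fold). *Hoxa13* had 4 and 0 UMIs in SI and 9 and 112 UMIs in LI (-6.79 ± 0.73; -5.42 without SI replicate 2). *Hoxd13*, at the posterior end of its cluster, had 1 and 0 UMIs against 1 and 15 UMIs and an edgeR adjusted p of 0.0523, and it was called without LI replicate 1.

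Group 9 genes were detected in both regions at unequal levels, although SI replicate 1 had only 1 UMI of *Hoxd9* and 2 of *Hoxb9*, under the floor of 3 UMIs. *Hoxd9* was at 0.0638 and 0.496 CPM in SI and at 79.96 and 56.1 CPM in LI (-7.46 ± 0.46; -9.62 without SI replicate 2), and *Hoxa9* at 1.15 and 2.44 CPM against 61.0 and 69.2 CPM (-5.01 ± 0.32; -5.71 without SI replicate 2). *Hoxc9* differed least among the called genes of the group, with 10.7 and 11.4 CPM against 47.4 and 31.3 CPM (-1.60 ± 0.25), and fell just short of the threshold without SI replicate 1 (edgeR adjusted p 0.0529). *Hoxb9* was not called, with 0.128 and 0.957 CPM against 9.49 and 2.68 CPM (-2.61 ± 0.86, edgeR adjusted p 0.434), but it was called without SI replicate 2 (-4.95).

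Towards SI, the largest difference was that of *Hoxa4* (ENSMUSG00000000942, chromosome 6, 52189671 to 52191753). It had 1508 and 1194 UMIs in SI and 1 and 40 UMIs in LI, or 96.2 and 42.3 CPM against 1.36 and 4.47 CPM (4.19 ± 0.50, edgeR adjusted p 0.0067; 5.77 without LI replicate 2 and 3.55 without SI replicate 1). *Hoxc5* was at 31.4 and 29.5 CPM against 1.36 and 6.04 CPM (2.62 ± 0.32), and *Hoxa2* at 15.3 and 7.76 CPM against 0 and 1.45 CPM (3.23 ± 0.57, not called without LI replicate 2). The called *Hoxb* genes ran from *Hoxb4*, with 166 and 129 CPM against 35.2 and 66.8 CPM (1.51 ± 0.27), to *Hoxb8*, with 40.4 and 37.7 CPM against 9.49 and 12.52 CPM (1.82 ± 0.23). *Hoxb6* (2.28 ± 0.35), *Hoxb7* (2.01 ± 0.29) and *Hoxb5* (1.53 ± 0.27) lay between them on the chromosome, and *Hoxc4* (1.97 ± 0.26) was also called. Without LI replicate 2 the values of *Hoxc5*, *Hoxb6*, *Hoxb7*, *Hoxb5* and *Hoxb4* were 4.59, 4.06, 3.29, 2.24 and 2.18, and *Hoxc4* (1.47) lost its call, as *Hoxb5* did without SI replicate 1 (1.42). LI replicate 1 had only 1, 2, 3, 5 and 26 UMIs of *Hoxc5*, *Hoxb6*, *Hoxb7*, *Hoxb5* and *Hoxb4*, so the larger values rest on few counts. *Hoxb2* (1.51 ± 0.43) and *Hoxb3* (1.21 ± 0.28) were not called with all libraries, and both were called without LI replicate 2 (2.99 and 2.26), LI replicate 1 (1.07 and 0.97) or SI replicate 2 (1.90 and 1.37), but not without SI replicate 1 (1.16 and 1.21).

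Not every anterior or central *Hox* gene followed its number. Within *Hoxd*, whose tested genes were all lower in SI, *Hoxd4* was at 3.83 and 2.16 CPM in SI and at 20.3 and 22.8 CPM in LI (-2.81 ± 0.33), *Hoxd8* at 7.59 and 6.66 CPM against 39.3 and 28.0 CPM (-2.03 ± 0.26), and *Hoxd3* at 0.255 and 0.248 CPM against 2.71 and 2.91 CPM (-3.35 ± 0.58, not called without SI replicate 1 or 2). *Hoxa6*, *Hoxc6* and *Hoxc8* differed by less than 2 SE, with log2 fold changes of -0.07 ± 0.38, 0.41 ± 0.22 and 0.11 ± 0.24. Exons of *Hoxc5* and *Hoxc10*, of *Hoxd3* and *Hoxd4*, and of *Hoxa2* and *Gm28308* share bases on the same strand, so their counts are uncertain to that extent. *Hoxa4*, *Hoxb2*, *Hoxb3* and *Hoxb5* overlap antisense genes, and their counts are uncertain there unless the counting used strand.

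**Figure D4:**
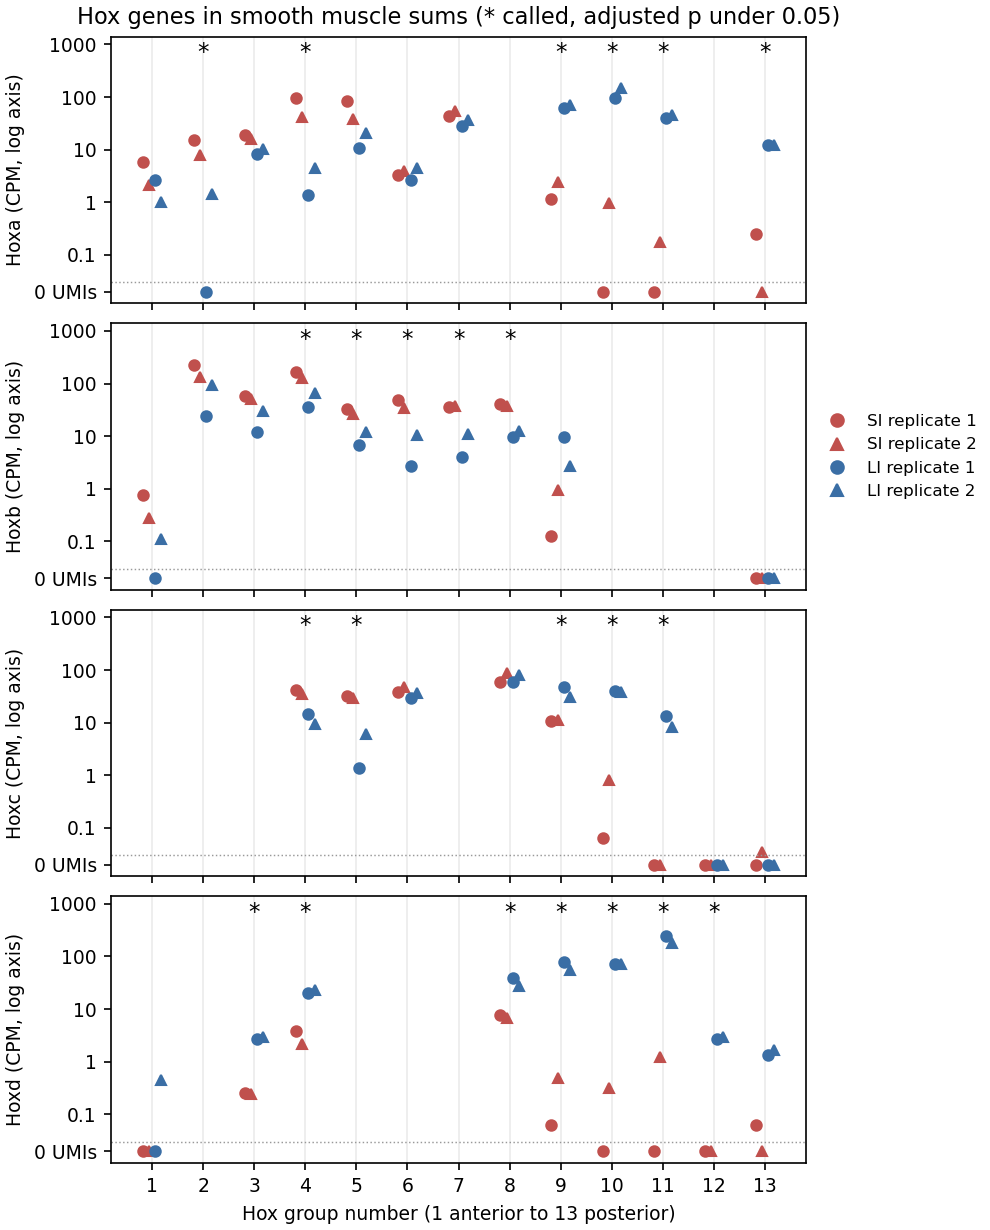
Level of each *Hox* gene in the SMC sum of each library (CPM, log axis, with 0 UMIs drawn on a line of its own), by group number from anterior to posterior and by cluster; a star marks genes with an adjusted p under 0.05. Groups 10 to 13 stand at 0 or close to it in SI, and *Hoxb* genes 4 to 8 stand higher in SI than in LI.

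The posterior *Hox* counts in SI muscle sat in few cells. Of SMC, 6 of 1700 in SI replicate 1 (0.353%, 95% Wilson interval 0.162 to 0.768) and 17 of 3038 in SI replicate 2 (0.560%, 0.350 to 0.894) had any UMI of *Hox* groups 10 to 13. In LI the share was 63.6% (91 of 143, 55.5 to 71.1) and 64.3% (550 of 855, 61.1 to 67.5), although the 2 libraries differed in depth. Of the 17 cells in SI replicate 2, 7 had 5 or more such UMIs, and the 17 held 101 UMIs together, while the 6 cells in SI replicate 1 had 1 UMI each. Remaining stromal cells of the same libraries gave 0.415%, 5.59%, 77.8% and 84.4%, with 90 of 3040 cells in SI replicate 2 at 5 or more UMIs. Thinned to 3000 UMIs, SMC gave 0.0591% and 0.301% in SI and 57.6% and 54.4% in LI.

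Proliferation was compared through 24 genes of mitosis. In edgeR, and in DESeq2's Wald test, 0 of 24 were called. In edgeR 8 had an unadjusted p under 0.05, as did 964 of 12592 over all genes. All 24 had a positive log2 fold change (median 0.49, range 0.33 to 0.90, beside 0.00 over all genes). *Mki67* was at 198 and 185 CPM in SI and at 129 and 162 CPM in LI (0.49 ± 0.18, edgeR adjusted p 0.538), and *Top2a* at 471 and 363 CPM against 319.8 and 371 CPM. The list's median was 0.36 without LI replicate 1 and 0.89 without LI replicate 2, beside 0.01 and 0.07 over all genes. Of SMC thinned to 3000 UMIs, the share with 3 or more mitosis UMIs was 53.0% (896 of 1691) and 36.8% (1101 of 2995) in SI and 33.3% (44 of 132) and 34.2% (287 of 838) in LI. SI replicate 1 stood above the other 3 libraries, which lay together. The means were 44.9% ± 11.5 (SD, n = 2) and 33.8% ± 0.647 (SD, n = 2), and the difference of 11.1 points had the smallest exact permutation p that the design allows, 0.333, and became 2.97 points without SI replicate 1 and 19.2 points without SI replicate 2. The shares unthinned differed by 13.7 points. In remaining stromal cells the shares were 58.2% and 43.8% in SI and 46.7% and 36.5% in LI, and these overlapped. DNA replication genes gave 0 calls of 24 in edgeR and in DESeq2's Wald test (median 0.04, 1 at an unadjusted p under 0.05).

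Immediate early and heat shock genes, which respond to tissue dissociation, gave 0 calls of 18 in edgeR (1 in DESeq2's Wald test) and a median of -0.44, beside 0.00 over all genes. In edgeR 6 of the 18 had an unadjusted p under 0.05, as did 964 of 12592 over all genes. Their summed level was 9074 and 9112 CPM in SI and 12726 and 11467 CPM in LI. The list's median was -0.34 without LI replicate 1 and -0.27 without LI replicate 2, beside 0.01 and 0.07 over all genes. The part of dissociation in the regional differences was not tested.

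Finally, the regional difference in SMC was compared with that in the remaining stromal cells of the same 4 libraries. Most of the genes that differed in SMC also differed in those cells. All 102 had the same direction in remaining cells, 76 of them were called there too (where 321 of 14252 genes, 2.25%, were called), and 11 of the 102 had an interaction. In an edgeR model with library as a block, 40 of 14467 genes (0.276%) had an interaction of region and cell group at an adjusted p under 0.05. For 19 genes (0.131%) SI over LI was shifted upward in SMC and for 21 (0.145%) downward, and 934 genes had an unadjusted p under 0.05. Of the 40, 34, 21, 39 and 23 were still called without SI replicate 1, SI replicate 2, LI replicate 1 and LI replicate 2.

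Matrix genes were among those shifted downward in SMC. *Col14a1*, a fibril-associated collagen, was at 13.3 and 31.1 CPM in SI and at 33.9 and 31.5 CPM in LI in SMC, and at 31.7 and 68.9 CPM in SI and 24.9 and 26.7 CPM in LI in remaining cells. The interaction was -1.47 ± 0.15 (edgeR adjusted p 0.00217). *Lum*, the matrix proteoglycan lumican, was at 57.8 and 78.4 CPM in SI and 69.1 and 66.9 CPM in LI in SMC, and at 84.5 and 105 CPM in SI and 39.7 and 45.6 CPM in LI in remaining cells (interaction -1.10 ± 0.12, edgeR adjusted p 0.0053). In remaining cells both SI libraries lay above both LI libraries for these genes, and the difference passed for *Lum* (1.28, edgeR adjusted p 0.0162) and not for *Col14a1* (1.08, edgeR adjusted p 0.178). In SMC the regions overlapped for *Lum*. For *Col14a1* both SI libraries lay below both LI libraries in SMC, with a log2 fold change of -0.41 ± 0.38 (edgeR adjusted p 0.889). This value became 0.07 without SI replicate 1 and -1.17 without SI replicate 2. Both interactions were called in 15 of 15 alternatives. *Hoxd11* (-2.94 ± 0.22) and *Hoxa10* (-2.73 ± 0.22) were also called, and here SI replicate 2 had 10.9 and 11.8 CPM of them in remaining cells and 1.24 and 0.992 CPM in SMC. Without SI replicate 2 the interaction of both could not be judged, since SI replicate 1 had 0 UMIs of them in SMC and 0.0668 and 0.0334 CPM in remaining cells.

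**Figure D5:**
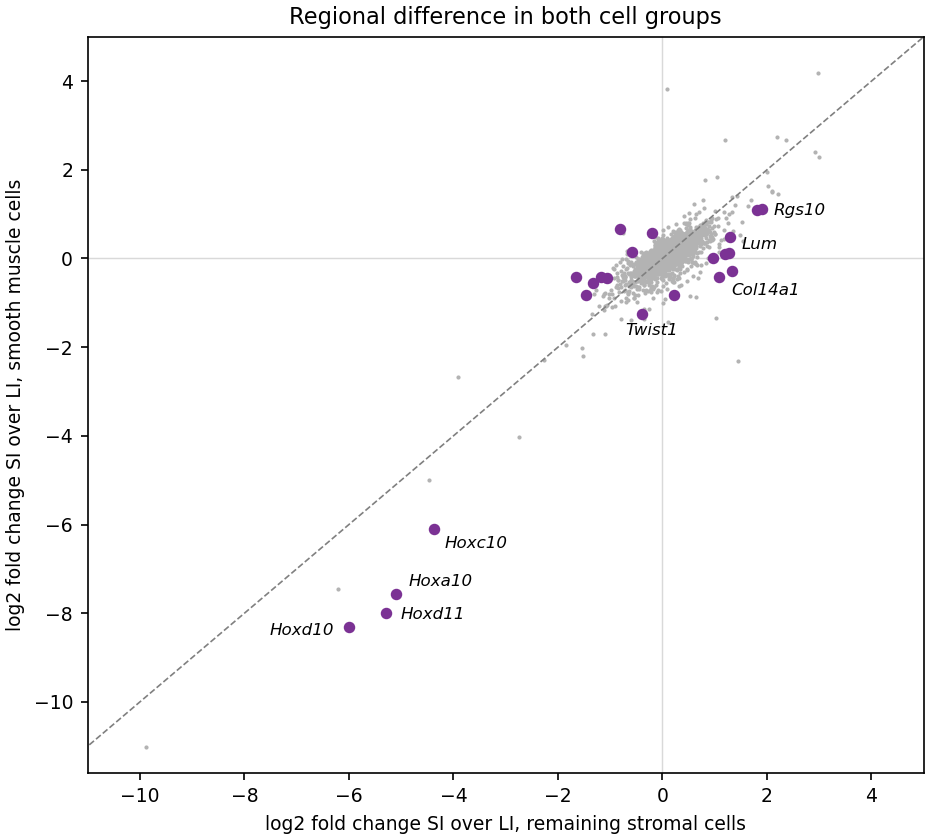
Log2 fold change of SI over LI in SMC (vertical axis) against that in remaining stromal cells of the same libraries (horizontal axis), for genes with an average log2 CPM over 5 (1 gene left out). Purple points had an adjusted p under 0.05 for the interaction, and *Col14a1* lies at -0.41 in SMC and 1.08 in remaining cells, below the dashed line of equal change.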

How the data were processed

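Stromal cells of E12.5 embryos were profiled on the 10x Genomics platform in 2 SI and 2 LI libraries, which were grouped by the titles in the labels (other labels speak of adult or colonic tissue). The authors aligned reads to mm10 and counted UMIs per gene and barcode with Cell Ranger 3.1.0. The deposited values are raw UMI counts of 28692 listed genes for the barcodes called as cells, and cells that the study later removed in Seurat 3 were not identified here. The members and gene lists were chosen with earlier results of these data known. Library totals ran from 31630548 to 62886525 UMIs, and Wilson intervals and the floor of 3 UMIs cover counting error only.

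Cells were selected by the rule in Python 3.11.15 (NumPy 2.4.6, SciPy 1.17.1, pandas 2.3.3, and Scrublet scores from scanpy 1.11.5 for the doublet alternative only; no doublets were removed otherwise). Counts were summed per library and cell group, and CPM values are counts over that sum. Sums were tested in edgeR 4.0.16 (R 4.3.3, limma 3.58.1) by the quasi-likelihood test, with TMM normalization, filterByExpr, Benjamini-Hochberg adjustment over all genes tested and calls under 0.05, with library as a block in the interaction. Standard errors were taken as |log2 fold change| divided by √F. The 8 genes of the rule were not tested. Shares were compared by exact permutation over libraries. The 2 sums of each region were not copies of 1 library (chi-square per degree of freedom 19.9 in SI and 5.14 in LI). Named genes were called genes without overlap whose average log2 CPM exceeded 5 (the 10 of largest fold change per direction, *Hox* genes apart), the called *Hox* genes, up to 3 called genes per list and direction, and the 5 interaction genes with the smallest adjusted p. Others were named after their values were seen. Results for 1 of the named interaction genes are left out. Tested on simulated counts, edgeR recovered 40% and 93% of genes changed by log2 fold changes of 1 and 2 in SMC (12592 genes) and 62% and 90% in the interaction (14467 genes). Changed genes were drawn from those with a mean expected count over 10, and 1 dispersion served all genes. Recovery at lower counts or with unequal dispersion was not simulated. Alternatives were DESeq2 1.42.0 (Wald test and size factors), no filter on low counts, the replicate number as a block, each library left out, other thresholds of the rule, thinning, doublet removal, equal cells per *Acta2* range, cells without mitosis UMIs, and cells without *Pdgfra* and *Adamdec1* UMIs. Positions are from GENCODE vM21, in which 28339 listed genes were found.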

Additional observations from a re-analysis of the deposited data

Results flagged for a closer look

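The difference between SI and LI differed between SMC and remaining stromal cells, by the test of the interaction, for 40 genes, and for the following genes that the report names. Values are the interaction on the log2 scale, SMC minus remaining cells. *Col14a1* had -1.47 and *Lum* -1.10, and both kept their call without any 1 library. *Hoxd11* (-2.94), *Hoxa10* (-2.73), *Hoxa11* (-3.70), *Hoxd10* (-2.60) and *Hoxc10* (-2.08) rested on the counts of SI replicate 2. In SI replicate 1 SMC had 0 UMIs of the first 4 and 1 UMI of *Hoxc10*, and remaining cells had at most 0.401 CPM of any of the 5, so the interaction could not be judged without SI replicate 2. *Vcam1* (-1.997) kept its call without any 1 library, and *Hoxc8* (-0.998) lost it without SI replicate 1 (-0.75) or LI replicate 2 (-1.04). *Hoxb8* (-1.47) was lost without LI replicate 2 (-0.76). *Hoxd3* (-2.72) was lost without SI replicate 2 (-2.68) or LI replicate 2 (-2.81). *Rgs10* (-0.81) was called without LI replicate 1 (-0.85) and not without any of the other 3 libraries, and *Twist1* (-0.79) was lost without SI replicate 1 (-0.68) or LI replicate 2 (-0.80). No group had the 4 samples that a search for single outlying libraries needs.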

How the results depend on the processing

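Depth was lowest in LI replicate 1, where 143 SMC were summed and a count of 0 allowed up to 4.07 CPM. The count of genes that differed between SI and LI in SMC was 102, and 102 to 346 when any 1 library was left out. It was 431 without the filter on low counts, 43 with *Acta2* at 20 or more, 44 with at least 3 second markers and 39 with sums thinned to 1 total. The count of interaction genes was 40, and 66 to 201 when any 1 library was left out. It was 352 without the filter, 73 and 23 with *Acta2* at 5 or more and at 20 or more, 61 without the highest doublet scores and 66 when remaining cells had *Acta2* under 2. The labels share replicate numbers but do not show that the numbers pair the libraries, and the replicates' differences correlated across genes at r = 0.116 (12592 genes) and 0.243 (4811 genes with an average log2 CPM over 5). With the replicate block the counts were 248, among them all 102, and 390, among them all 40. DESeq2's Wald test gave 113 and 32 and its size factors 112 and 40. The split of 28 towards SI and 74 towards LI became 38 and 43 with equal cells per *Acta2* range, 19 and 20 with thinned sums, 194 and 152 without LI replicate 2 and 40 and 62 without SI replicate 1. In cells free of *Pdgfra* and *Adamdec1* UMIs, a setting chosen after seeing the data, 70 genes were called. Of 874 values of 50 named genes under the alternatives, 717 stayed past the threshold, 157 did not and 0 changed direction. The difference in the share of SMC ran from 19.7 to 36.6 points, with SI above LI throughout (21.0 to 36.6 when any 1 library was left out), and that of the share with mitosis UMIs from 2.97 to 19.2 points. The all-gene median (log2) was farthest from 0 in the interaction without LI replicate 2, at 0.135 beside 0.00856 with all libraries.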

Other observations

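Other genes called towards LI in SMC are given here, named after their values were seen and not as a tested group. *Vcam1*, a ligand of integrin α4β1, was at 4.08 and 6.31 CPM in SI and at 31.2 and 37.5 CPM in LI (log2 fold change -2.63 ± 0.28, edgeR adjusted p 0.00381). *Itga4*, which encodes the α4 chain of that integrin, was at 6.38 and 8.54 CPM in SI and at 62.3 and 27.5 CPM in LI (-2.26 ± 0.37; -2.93 without LI replicate 2), with reads that cannot be told from those of the antisense gene *Cerkl* where both overlap unless the counting used strand. For *Vcam1* the interaction with cell group was -1.997 ± 0.23 (edgeR adjusted p 0.00537), since remaining stromal cells had 7.95 and 21.0 CPM in SI and 23.0 and 25.5 CPM in LI. The collagen IV genes *Col4a5* (3.64 and 7.51 CPM against 28.5 and 41.4 CPM, -2.59 ± 0.35) and *Col4a6* (0.255 and 0.8504 CPM against 6.78 and 7.72 CPM, -3.50 ± 0.54), which lie head to head on chromosome X, were called as well. Neither *Col4a5* (-2.20) nor *Col4a6* (-3.36) passed without LI replicate 2, and without SI replicate 2 their values were -3.21 and -4.68.

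*Ebf1*, an early B-cell factor family member found in many stromal cells, was at 2.17 and 5.85 CPM in SI and at 88.1 and 65.1 CPM in LI (-4.02 ± 0.40, edgeR adjusted p 0.00275; -4.99 without SI replicate 2). *Pdlim5*, a PDZ and LIM domain protein of the actin cytoskeleton, was at 6.13 and 8.65 CPM against 69.1 and 42.7 CPM (-2.68 ± 0.30), and *Htra1*, a secreted serine protease, at 2.68 and 2.62 CPM against 23.0 and 22.1 CPM (-2.96 ± 0.27). *Ebf1*, *Pdlim5* and *Htra1* were called in 18 of 18 alternatives. *Wnt16*, a WNT ligand that was not on the WNT list, was at 0.893 and 0.425 CPM against 6.78 and 14.2 CPM (-4.17 ± 0.47) and was not called without LI replicate 2 (-3.31).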
